A study of Homo sapiens and Mus musculus with 20 samples.

Results

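Full-length (FL) Satb1 occupied 22877 listed sites in MCF10A cells, and 939 of these, or 4.10%, were listed for neither truncated construct. These sites were selected on absence: an FL peak qualified when it shared not even 1 bp with a peak of the ∆HD list or of the N-C1 list. The remaining 21938 FL peaks comprised 20102 that were also listed for both constructs, 1673 listed for N-C1 but not ∆HD, and 163 listed for ∆HD but not N-C1. MCF10A is a human mammary epithelial line that has no Satb1 of its own. The cells expressed FL Satb1, a form lacking the homeodomain (∆HD), or a form holding the N-terminal domain and CUT1 (N-C1). Each was fused to eGFP at its C terminus, carried on a cumate-inducible lentiviral vector and precipitated with an antibody to GFP. The lines were sorted into an identical fluorescence gate, so the constructs differed by cell line as well as by domain. In 2 further experiments, cells expressing FL Satb1 were treated for 2 h with camptothecin, an inhibitor of topoisomerase I, or with ICRF-193, an inhibitor of topoisomerase II. ATAC-seq, which marks DNA open to transposase, came from native cells and from cells expressing Satb1. Each condition had 1 peak list and hence no replicate spread, and conditions were not tested against each other. Missing from a list does not mean free of protein, because a list keeps only signal above a threshold that moves with depth and background.

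Satb1 is a chromatin organizer that is abundant in developing T cells. It assembles through its N-terminal domain and contacts DNA through a pair of CUT domains and a homeodomain. It is known for binding A/T-rich DNA that unwinds readily under torsional strain, often called base unpairing regions. ∆HD retains both CUT domains, and N-C1 retains only the first of them.

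Sequences of some of the strongest sites are shown as examples and do not stand for all absent sites. The first 3 lines below give strong sites with at least 1 match to the Satb1 consensus YTAWTAR (where R stands for A or G, Y for C or T and W for A or T) in 400 bp, and the next 2 lines give the strongest without one. The last 2 lines give, for contrast, the strongest FL peaks that were also listed for both constructs. Each line holds 200 bp centered on the peak summit, from the plus strand of hg19, and capitals mark matches to YTAWTAR. The 400 bp windows were centered on the peak midpoint, so a printed stretch can lie partly or wholly outside its window.
chr2:68744815-68745014 (absent from both, intron of APLF): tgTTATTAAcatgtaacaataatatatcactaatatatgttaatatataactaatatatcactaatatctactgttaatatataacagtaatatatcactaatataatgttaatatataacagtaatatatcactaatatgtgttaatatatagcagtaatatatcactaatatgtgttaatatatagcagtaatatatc
chr1:238805003-238805202 (absent from both, intergenic): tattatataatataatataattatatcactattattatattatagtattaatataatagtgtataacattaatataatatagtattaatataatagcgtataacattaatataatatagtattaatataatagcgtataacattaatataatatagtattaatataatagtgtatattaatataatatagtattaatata
chr10:45524577-45524776 (absent from both, intergenic): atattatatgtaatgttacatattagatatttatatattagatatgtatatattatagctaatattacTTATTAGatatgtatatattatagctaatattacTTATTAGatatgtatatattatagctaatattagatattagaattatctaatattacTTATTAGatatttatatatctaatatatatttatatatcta
chr13:87726640-87726839 (absent from both, no match, intergenic): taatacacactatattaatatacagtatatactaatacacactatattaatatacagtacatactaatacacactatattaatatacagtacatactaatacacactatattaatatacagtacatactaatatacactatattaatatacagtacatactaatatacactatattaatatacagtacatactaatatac
chrX:54941423-54941622 (absent from both, no match, intergenic): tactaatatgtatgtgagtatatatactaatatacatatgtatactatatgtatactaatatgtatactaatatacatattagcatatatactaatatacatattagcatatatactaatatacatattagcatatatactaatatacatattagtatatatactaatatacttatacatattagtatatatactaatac
chr9:70931471-70931670 (shared with both constructs, intergenic): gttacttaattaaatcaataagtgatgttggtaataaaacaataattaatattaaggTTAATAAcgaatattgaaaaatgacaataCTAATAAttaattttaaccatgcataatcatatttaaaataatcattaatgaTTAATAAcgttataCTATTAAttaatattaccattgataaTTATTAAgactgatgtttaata
chr10:52621240-52621439 (shared with both constructs, intron of A1CF): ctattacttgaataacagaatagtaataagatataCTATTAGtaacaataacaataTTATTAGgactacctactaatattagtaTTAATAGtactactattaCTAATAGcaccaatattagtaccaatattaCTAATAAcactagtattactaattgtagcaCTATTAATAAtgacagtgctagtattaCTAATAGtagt
In the printed 200 bp, the 5 absent sites hold 1, 0, 3, 0 and 0 matches to YTAWTAR in the order shown, and the 2 shared peaks hold 5 and 8. The alternating hexamer tatata occurs 5, 1, 7, 1 and 9 times in the absent sites and 0 times in both shared peaks. The printed stretch of the chromosome 13 site repeats a unit of 32 bp: shifted by that distance, its 400 bp window matched itself at 98.4% of positions. The 400 bp window of the chromosome X site matched itself at 100% at a shift of 33 bp. That window does not include the printed stretch, so the value does not describe the bases shown. Such arrays were unusual among the sites: 9 of 935, or 0.963%, matched themselves at 75% or more of positions at any shift from 8 to 100 bp, against 41 of 21923 other FL peaks (0.187%). The sequence of 4 sites, all on chromosome Y, is masked in the reference, which leaves 935 sites for measures of sequence.

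The absent sites were weaker than other FL peaks at the median, although their strongest members ranked among the strong peaks of the whole list. Fold enrichment, the pileup over the local background, ranged from 2.95 to 51.4 with a median of 6.23, against a median of 7.32 over all FL peaks. The median −log10 q was 8.41, against 12.2 over all FL peaks. The median width was 277 bp, against 314 bp. When all FL peaks were divided into 4 classes by fold enrichment, the share absent from both lists was 6.21% in the weakest class, 4.87% and 3.50% in the next, and 1.87% in the strongest. In that strongest class, with a fold enrichment of at least 10.7, 107 sites were absent from both construct lists. These values share their source with the selection and are given as a description.

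The number of absent sites depended on what counted as shared. A reciprocal overlap of 50% gave 1746 sites, and leaving out construct peaks with a fold enrichment under 5 gave 1447, whereas requiring no construct peak within 500 bp left 885. The gap to the nearest construct peak ranged from 5 bp to 659 kb with a median of 9.59 kb, and it was 500 bp or less at 54 sites. The 5 sites just inside the rule lay 5, 6, 26, 37 and 50 bp from a construct peak and had fold enrichments of 4.86, 5.27, 5.29, 5.82 and 11.6. The 5 FL peaks just outside it overlapped a construct peak by 1, 13, 36, 52 and 69 bp and had fold enrichments of 6.23, 5.0, 4.72, 3.62 and 5.41. The median overlap of the FL peaks outside the rule was 312 bp.

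A/T content separated the absent sites from the rest of the FL list. In 200 bp at the peak midpoint they held 80.9% A/T (SD 5.70 across 935 peaks), against 72.0% (SD 5.18) in the other FL peaks. The difference was 8.84 percentage points, with a 95% interval across peaks of 8.47 to 9.21. Intervals in this account cover the spread across peaks or counting error only, and peaks of 1 list are not replicates. The classes were ordered: 71.7% A/T in peaks shared with both constructs, 73.6% in those shared with ∆HD alone, 76.4% in those shared with N-C1 alone and 80.9% in those shared with neither. The intervals of these 4 means did not overlap.

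The excess was local. At the central 50 bp bins of the absent sites A/T content reached 84%, against 73.4% in peaks shared with both constructs. In flanks 1000 to 2000 bp away, the absent sites held 62.8% A/T and the other FL peaks 62.5%. Of the absent sites, 99.5% were richer in A/T than their own flanks. The difference also held among peaks of like strength. It was 8.07 points in the weakest class of fold enrichment, 8.54 and 10.8 points in the next, and 12.3 points in the strongest.

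**Figure D1:**
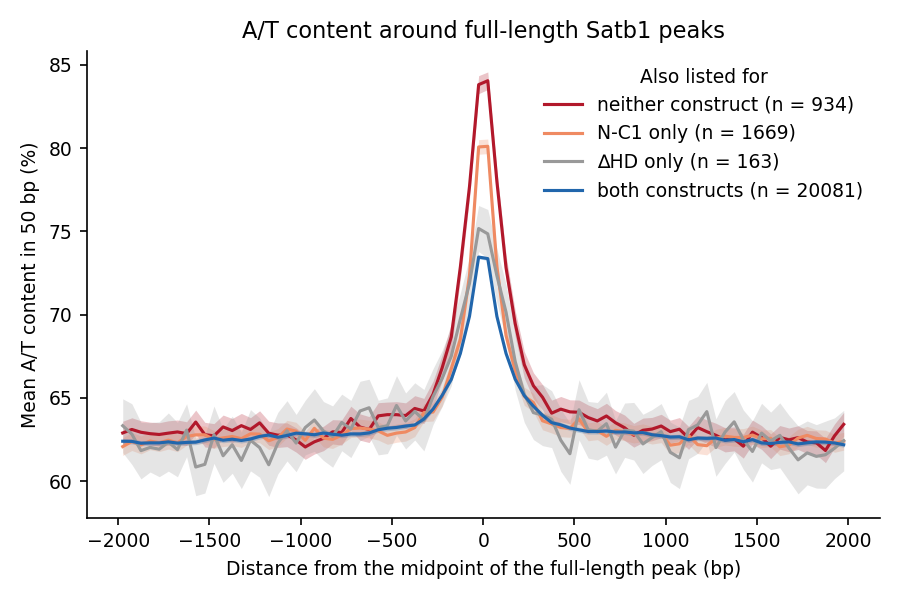
Mean A/T content (%) in 50 bp bins against the distance (bp) from the midpoint of FL peaks, for peaks listed for neither construct, for N-C1 only, for ∆HD only or for both; bands are 95% intervals across peaks. The sites absent from both construct lists peak at 84% and the shared peaks at 73.4%, and the curves meet in the flanks.

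Read the other way, the share of FL peaks missing from both construct lists rose with A/T content. Of the FL peaks with 70 to 75% A/T, 82 of 8920 were absent, or 0.919% (95% Clopper-Pearson interval 0.732 to 1.14). The share was 4.84% (4.30 to 5.43) at 75 to 80% A/T and 26.4% (24.0 to 28.9) at 80 to 85%. It reached 55.4% (49.6 to 61.2) at 85 to 90% and 59.3% (47.8 to 70.1) at 90% and above. Below 70% A/T few were absent, 10 of 1747 FL peaks under 65% and 19 of 4838 at 65 to 70%. FL peaks of at least 85% A/T made up 1.64% of the list, 375 peaks, and 211 of them were absent from both construct lists. Another 123 were listed for N-C1 alone, 41 for both constructs and 0 for ∆HD alone, which allows a share of up to 0.979% by the exact interval.

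Strength and A/T content both moved with absence. Below 75% A/T and in the strongest class of fold enrichment, 0 of 3209 FL peaks were absent, which allows a share of up to 0.115%. At 85% A/T and above, 29.3% (23.3 to 35.9) of the 215 peaks in the strongest class were absent. In the 3 weaker classes the shares there were 85.9%, 96.4% and 100%, over 78, 28 and 54 peaks. The median ∆HD fold enrichment at shared peaks was 10.3 at 70 to 75% A/T, 6.13 at 85 to 90% and 9.44 at 90% and above, the last over 4 peaks. The FL medians at the same A/T contents were 7.19, 12.3 and 12.8, over all FL peaks and so including the absent sites. For N-C1 the medians were 11.1, 10.0 and 8.65, over the FL peaks shared with N-C1. These values come from separate lists and cover different sets of peaks, so they are given side by side only.

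The construct lists were larger than the FL list, and their shortage of A/T-rich peaks was visible in the lists themselves. Of 50537 ∆HD peaks, 11 had at least 85% A/T, or 0.0218% (0.0109 to 0.0390). Of 62856 N-C1 peaks, 118 did, or 0.188% (0.155 to 0.225). The camptothecin list held 460 such peaks among 24475, and the ICRF-193 list 617 among 37350.

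The same contrast appeared when the genome was cut into 200 bp windows and each window was assigned to a list if its center lay within a peak. At 70 to 75% A/T, 1.0% of windows lay in FL peaks, against 2.59% in ∆HD peaks and 3.10% in N-C1 peaks. At 80 to 85% the order was reversed, with 5.09% (4.84 to 5.35) in FL peaks, 3.06% (2.87 to 3.27) in ∆HD peaks and 3.90% (3.68 to 4.13) in N-C1 peaks. Among the 10890 windows of at least 85% A/T, the share was 3.64% (3.29 to 4.01) for FL, 1.23% (1.03 to 1.46) for N-C1 and 0.230% (0.149 to 0.339) for ∆HD. The 939 absent sites held 219 of the 396 windows of that kind that lay in FL peaks. By far most windows of this A/T content lay in no FL peak.

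**Figure D2:**
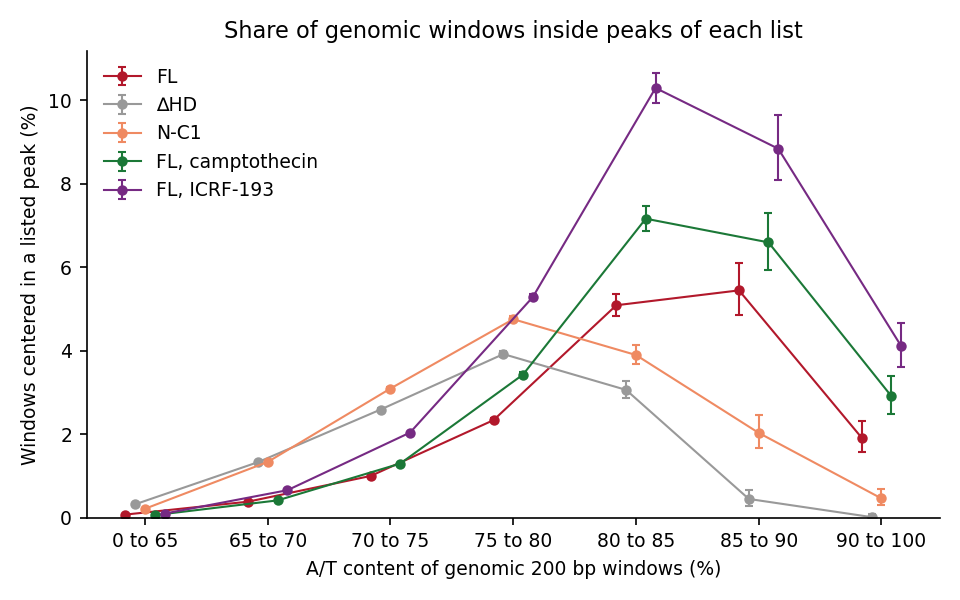
Share (%) of genomic 200 bp windows whose center lies in a peak of each of 5 lists, by A/T content of the window; error bars are 95% Clopper-Pearson intervals. The ∆HD and N-C1 shares exceed the untreated FL share at 70 to 75% A/T and fall below it from 80% upward, where ICRF-193 reaches 10.3%.

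Peaks that the selection did not use gave a second view. The camptothecin list held 5844 peaks that overlapped no untreated FL peak, and 1125 of these, or 19.3% (18.2 to 20.3), were absent from both construct lists. They held 77.9% A/T, against 73.3% in the camptothecin peaks found in a construct list, a difference of 4.61 points (4.28 to 4.94). Of 16188 such ICRF-193 peaks, 4247 were absent from both construct lists, or 26.2% (25.6 to 26.9). They held 77.3% A/T against 72.8%, a difference of 4.57 points (4.40 to 4.73). From 70% A/T upward absence again rose, from 7.66% of the camptothecin peaks and 13.7% of the ICRF-193 peaks at 70 to 75% A/T to 97.6% and 100% at 85 to 90%. Below that it did not rise: the shares were 16.2% (10.1 to 24.2) and 11.9% (8.78 to 15.6) under 65% A/T, and 7.0% and 8.34% at 65 to 70%. These lists are set against the same 2 construct lists, so they are not independent of what those lists lack.

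**Figure D3:**
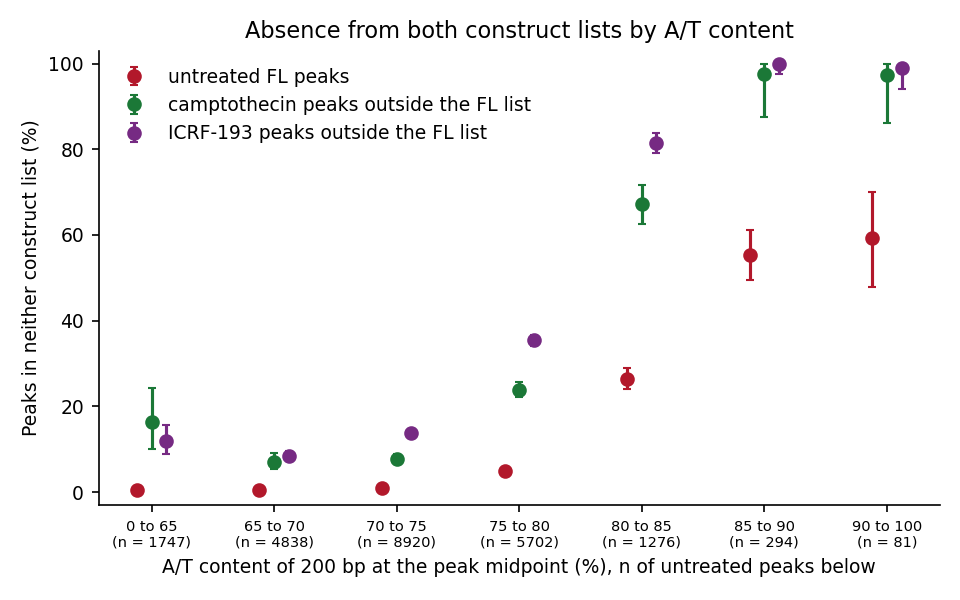
Share (%) of peaks found in neither construct list by A/T content of 200 bp at the midpoint, for untreated FL peaks and for camptothecin and ICRF-193 peaks outside the FL list; error bars are 95% Clopper-Pearson intervals and n is the number of untreated FL peaks. Untreated FL peaks rise from under 1% to 59.3%, and treated peaks from 7.66% and 13.7% at 70 to 75% A/T to nearly all at 85% and above.

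Nearly all absent sites carried a match to the degenerate consensus. YTAWTAR was found in 400 bp at the midpoint of 883 of 935 sites, or 94.4% (92.8 to 95.8), against 96.7% of all FL peaks and 25.8% of all 400 bp windows of the genome. YTAWTAR reads the same on both strands. The genomic windows were not matched to the sites for A/T content. The mean number of matches was 2.90, against 2.75 in the other FL peaks. Of the absent sites, 31 held 7 or more, or 3.32%, against 1.63% of the other FL peaks. In the strongest class of fold enrichment, 87.6% of the absent sites had a match, against 97.1% of other FL peaks, and in the weakest class the shares were 96.0% and 95.6%. Among the 21 absent sites with a fold enrichment of at least 20, 1 of them without sequence, the share was 75%.

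The sites differed from other FL peaks in the short sequences they held. CTAATAR, a stricter form that YTAWTAR includes, was found on either strand in 44.4% (41.2 to 47.6) of the absent sites, 68.1% of the other FL peaks and 10.1% of genomic windows. The alternating hexamer TATATA was found in 63.7% (60.6 to 66.8) of the absent sites, 29.7% of the other FL peaks and 17.7% of genomic windows. AATATATT followed the same pattern, with 30.4% against 9.78%, and 3.15% of genomic windows. TAATTA, a core that many homeodomains recognize, was found in 70.2% of the absent sites against 56.1%, and in 16.3% of genomic windows. These differences were graded across classes and not particular to the absent sites. Among FL peaks shared with N-C1 alone, CTAATAR was found in 53.2%, TATATA in 49.4% and TAATTA in 65.3% (62.9 to 67.6). The TAATTA interval overlapped that of the absent sites (67.1 to 73.1). AATATATT and TAATTA consist of A and T alone and were not compared among peaks of like A/T content. A run of AAAAAAAA, read on either strand, did not separate the groups, with 13.9% (11.7 to 16.3) against 15.3% (14.9 to 15.8) and 22% of genomic windows. TGANTCA, the core bound by AP-1 factors, was found in 8.98% of the absent sites, 12.6% of the other FL peaks and 12.2% of genomic windows. Letter matches in a window describe the sequence and do not show that a factor is bound.

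Counts of dinucleotides and runs without G or C differed too, but they were not compared among peaks of like A/T content. The absent sites held 61.3 TpA steps in 400 bp (SD 18.7), against 44.3 (SD 9.36) in the other FL peaks. ApA or TpT steps, which do not alternate, were also more frequent, at 109 against 100.5. The longest run without G or C averaged 29 bp against 16.7 bp. CpG averaged 1.28 against 1.65. Peaks shared with N-C1 alone lay between on each of these measures. They averaged 50.5 TpA steps, 105.3 ApA or TpT steps, a longest run of 24.98 bp and 1.52 CpG.

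A screen of all 2080 hexamers, with both strands joined, ranked these differences. In 19 hexamers, or 0.913%, the share of sites with a match was at least 15 points higher in the absent sites, and 12 of the 19 consisted of A and T alone. TATATA led with a difference of 34.0 points, followed by ATATAT with 31.8 and ATATAA with 29. In 4 hexamers, or 0.192%, the share was at least 15 points lower, and all of these held a G or C. They were ATTAGC with -18.4 points, CTAATA with -17.3, ATTAGG with -16.0 and CATTAG with -15.5. The screen chose its extremes from the same sequences that it describes.

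Part of this contrast remained among peaks of like A/T content. At 80 to 85% A/T, TATATA was present in 67.1% (61.8 to 72.1) of 337 absent sites and in 43.3% (40.1 to 46.6) of 939 other FL peaks. CTAATAR was present in 42.4% (37.1 to 47.9) and 57.0% (53.7 to 60.2). At 85 to 90% the TATATA shares were 74.8% and 51.1%, over 163 and 131 peaks. At 90% and above they were 70.8% (55.9 to 83.1) and 78.8% (61.1 to 91.0), over 48 and 33 peaks, so no difference was detectable there.

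Spacing between neighboring consensus matches differed as well when peaks of all A/T contents were pooled. In the other FL peaks, center distances of 8 to 12, 18 to 22 and 28 to 32 bp, near whole turns of the helix, outnumbered those of 13 to 17, 23 to 27 and 33 to 37 bp by a ratio of 1.39. The helical distances made up 58.2% (57.5 to 59.0) of 16972 such distances. In the absent sites the ratio was 1.03, and the helical share was 50.7% (47.4 to 54.0) of 919. Below 75% A/T the helical shares were 51.2% (40.0 to 62.3) in the absent sites and 59.4% (58.5 to 60.4) in the others, with overlapping intervals. At 75 to 80% they were 47.6% (40.3 to 55.0) and 57.7% (56.3 to 59.2), without overlap. At 80 to 85% they were 47.2% (41.3 to 53.2) and 52.8% (50.2 to 55.5), and at 85% and above 55.0% (49.7 to 60.3) and 52.8% (48.5 to 57.1), with intervals that overlapped in both classes. Distances within 1 peak are not independent of each other.

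**Figure D4:**
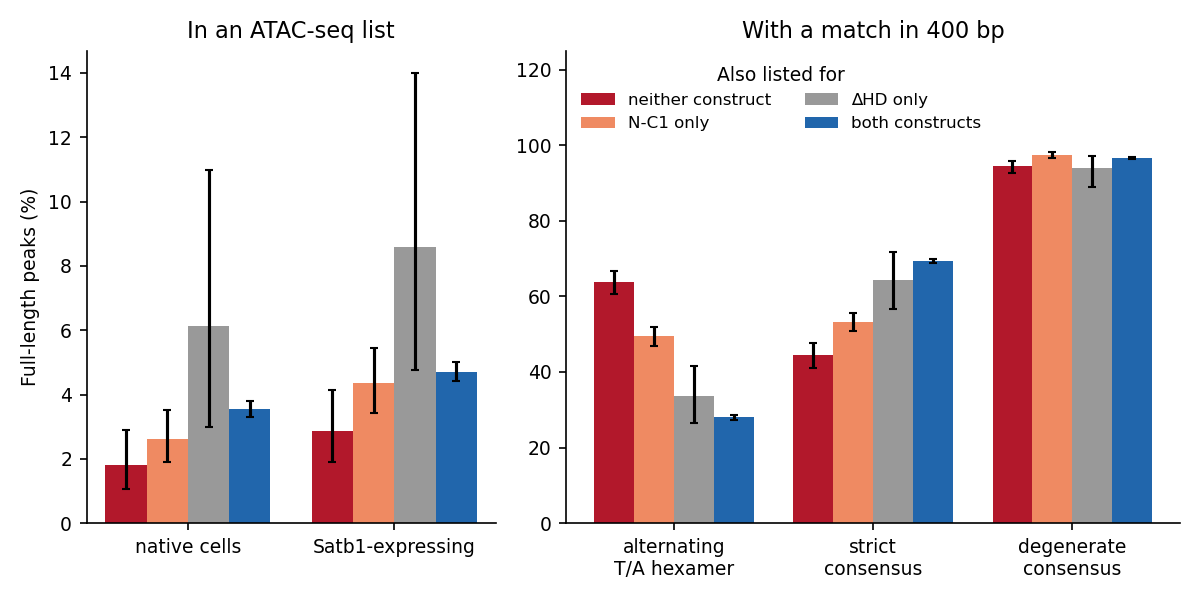
Share (%) of FL peaks that overlap an ATAC-seq peak (left) and that hold a match in 400 bp to the alternating hexamer, the strict consensus and the degenerate consensus (right), by whether the peak was also listed for neither construct, N-C1 only, ∆HD only or both; bars start at 0 and error bars are 95% Clopper-Pearson intervals. The sites listed for neither construct have the highest share with the alternating hexamer, 63.7%, and the lowest with the strict consensus, 44.4%.

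The strongest absent site lay between genes on chromosome 13 (87726237 to 87727437), 597 kb from the start of SLITRK5, which encodes a neuronal adhesion protein. Its fold enrichment was 51.4 for untreated FL, 55.3 after camptothecin and 64.5 after ICRF-193, and the nearest construct peak was 1.68 kb away. The next, in an intron of APLF, a DNA repair factor, had 44.2, 44.3 and 53.8 (chromosome 2, 68744275 to 68745294). An intergenic site on chromosome 1 (238804753 to 238805531), 745 kb from CHRM3, a muscarinic acetylcholine receptor gene, had 30.1, 41.0 and 46.4. All 3 were high in each FL list and had no overlapping peak for ∆HD or N-C1.

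The site on chromosome X (54940226 to 54941781) lay 5.37 kb from the start of TRO and had 29.1, 24.2 and 35.8. None of the 75-base stretches of its 400 bp window, the read length of the study, was unique in the genome. Repeats within the window count as copies, and it matched itself at 100% at a shift of 33 bp. The value thus does not show whether its reads could have come from another locus. On chromosome 10 (45524383 to 45525192), 28.3 kb from ZNF22, the values were 26.9, 21.3 and 31.7. Of the sites described so far, those on chromosomes X and 10 had lower values after camptothecin than without it, and each had its highest value after ICRF-193.

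A site on chromosome Y (1659704 to 1660291) had 26.9, 20.4 and 32.7. It lies in sequence that is masked in the reference, was annotated at a promoter of AKAP17A, and overlapped both ATAC-seq lists. Regions of chromosome Y that are masked have a copy on chromosome X, so these reads cannot be assigned to 1 of them. The site on chromosome 1 at 188242693 to 188243425, 1445 kb from PLA2G4A, had 26.2, 32.1 and 45.6.

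An intergenic site on chromosome 12 (19941146 to 19941904) held 20 matches, had a fold enrichment of 22 and matched itself at 81.1% at a shift of 34 bp. A site on chromosome 16 (86352108 to 86352473), 192 kb from FOXF1, held 17 matches with a fold enrichment of 8.71, and its best self-match was lower, at 63%. A site on chromosome 13 (109995507 to 109996292) held 16, with a fold enrichment of 15. The third of the strongest sites without a match, 26.4 kb from SPRY4 on chromosome 5 (141730717 to 141731978), had a fold enrichment of 22.2 and 90.5% A/T. Of its 75-base stretches, 52.1% were unique.

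Most absent sites were listed again after either inhibitor, which gives 2 further FL libraries in which they were seen. The camptothecin list held 791 of 939, or 84.2% (81.7 to 86.5), against 81.7% of all FL peaks. The ICRF-193 list held 911, or 97% (95.7 to 98.0), against 92.9% of all FL peaks. Both lists held 84% of the sites, against 80.4% of all FL peaks, and neither held 2.77% (26 sites), against 5.84%. The ICRF-193 list alone held 122 sites, or 12.99% (10.9 to 15.3), an interval that includes the 12.5% of all FL peaks. The camptothecin list alone held 2, or 0.213%, against 1.22% of all FL peaks. All 110 absent sites with a fold enrichment of 10 to 20 and all 21 with 20 or more were in both lists. Of the 205 with 7 to 10, 97.6% were in the camptothecin list and 100% in the ICRF-193 list. Below a fold enrichment of 5, 71.0% of 124 sites were in the camptothecin list and 91.1% in the ICRF-193 list.

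Whether the absent sites were listed more or less often than other FL peaks depended on what was held alike. Among weak peaks of like strength they were listed more often: in the weakest class of fold enrichment 71.5% were in the camptothecin list against 57.4% of other FL peaks, and 93.1% in the ICRF-193 list against 80.7%. In the strongest class nearly all peaks of both groups were listed, with differences of 0.0178 points (-3.45 to 0.101) for camptothecin and 0 points for ICRF-193, and in the third class the ICRF-193 difference was 1.03 points (-0.866 to 1.34). At like A/T content below 85% the camptothecin list held them less often, and below 80% so did the ICRF-193 list: at 75 to 80% A/T, 78.3% (72.9 to 83) were in the camptothecin list against 93.4% (92.7 to 94), and 97.1% (94.4 to 98.7) in the ICRF-193 list against 99.1% (98.8 to 99.4). At 85% A/T and above, 98.1% and 100% were in the camptothecin list, and 100% of both groups in the ICRF-193 list. The pooled ICRF-193 difference of 4.25 points turned to -3.75 points when a reciprocal overlap of 50% was required.

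Side by side, the values ran higher after ICRF-193. At the 789 sites in both treated lists, the median fold enrichment was 6.50 for untreated FL, 7.54 after camptothecin and 11.8 after ICRF-193. At the 17613 other FL peaks in both lists the medians were 8.28, 7.72 and 10.3. The lists differ in depth and background, so these are not measures of change.

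The 26 sites in neither treated list were weak, with a median fold enrichment of 5.10. The strongest of them lay on chromosome 2 (126562652 to 126562888), 851 kb from GYPC, with 6.09. The next was in an intron of SLC4A4, a bicarbonate transporter gene, with 5.96, and was followed by a site in an intron of ERI3 with 5.91 and 57.5% A/T. The 3 sites with the smallest −log10 q, 1.66, 2.58 and 2.58, had fold enrichments of 2.95, 4.04 and 4.04, and 1 of them was in the treated lists.

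**Figure D5:**
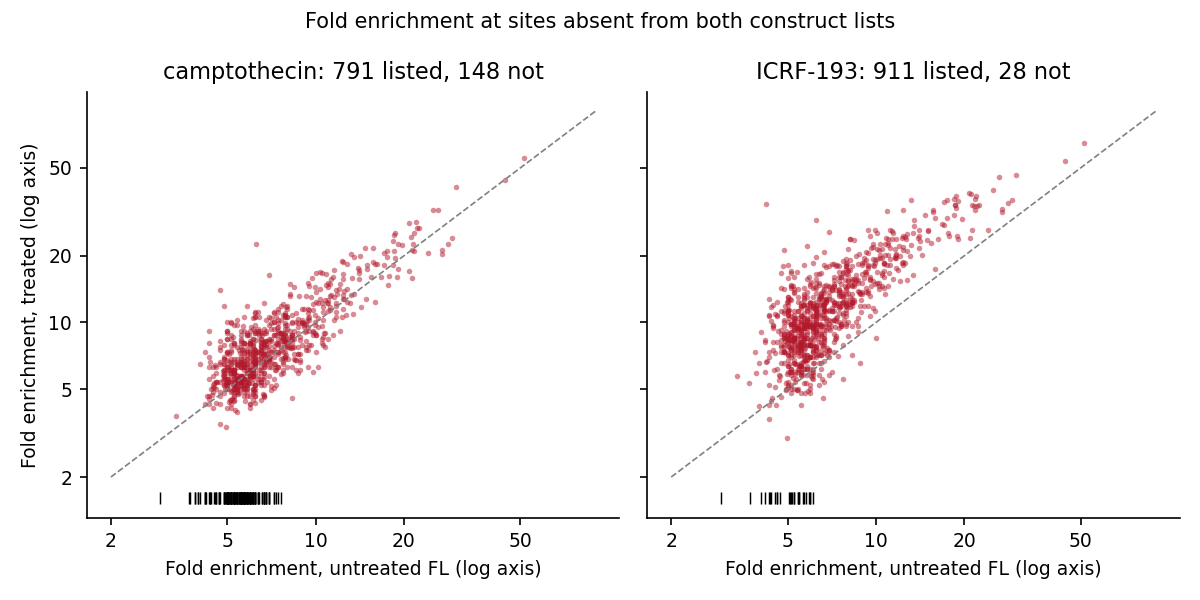
Fold enrichment after camptothecin (left) and ICRF-193 (right) against untreated FL at the sites absent from both construct lists, on log axes; each point is 1 site, ticks at the bottom are sites not in that treated list, and the dashed line marks equal values. The ICRF-193 list holds 911 sites and the camptothecin list 791, and sites missing from them are weak in the untreated list.

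The absent sites lay almost wholly outside accessible chromatin. In native cells 17 overlapped an ATAC-seq peak, or 1.81% (1.06 to 2.88), against 3.42% of all FL peaks. In cells expressing Satb1, 27 did, or 2.88% (1.90 to 4.16), against 4.64% of all FL peaks. At positions of the same width 10 kb to either side of the absent sites, 4.31% (3.44 to 5.33) overlapped the native list and 6.18% (5.13 to 7.36) the list from cells expressing Satb1. The sites were thus listed as accessible less often than their own surroundings, as were the other FL peaks, with 3.49% against 5.70% in native cells. Their A/T content moves with this, since over the genome 1.14% of windows with 70 to 75% A/T lay in native ATAC-seq peaks and 0.285% of those with at least 85%, and its part in the result was not tested. Compared with other FL peaks at 80 to 85% A/T, the share in the native list was 1.48% (0.483 to 3.43) against 2.77% (1.82 to 4.03). In the list from cells expressing Satb1 it was 2.37% (1.03 to 4.62) against 5.86% (4.44 to 7.56). Below 75% A/T the absent sites had the higher shares, 4.50% against 4.16% in native cells and 6.31% against 5.45% with Satb1, within overlapping intervals.

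Against 2.83% of all FL peaks, 14 of the absent sites, or 1.49%, were in both ATAC-seq lists. The strongest apart from the chromosome Y site was in an intron of TYW1 (chromosome 7, 66506808 to 66507365), a tRNA-modifying enzyme gene, with a Satb1 fold enrichment of 12.4 and ATAC-seq fold enrichments of 4.70 in native cells and 7.93 in cells expressing Satb1. A site in an intron of DPYD, the enzyme that starts pyrimidine breakdown, had 11.6, 9.54 and 7.22, but a construct peak lay 50 bp away. A site in an intron of PRR16 had 10.8, 4.11 and 3.50. A site in an intron of NOP14, a factor of small ribosomal subunit assembly, had 9.40, 17.6 and 16.1, and its nearest construct peak was 372 kb away.

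By position the absent sites were much like the rest of the list. At their summits 64.9% (61.7 to 67.9) were intergenic, against 60.9% of the other FL peaks, a difference of 3.95 points (0.774 to 7.01). At 80 to 85% A/T the difference was -5.84 points (-11.7 to -0.183), so its direction turned among A/T-rich peaks. Introns held 34.2%, against 37.4% of the other FL peaks, and exons 0.426% against 1.10%. The median distance to the start of a protein-coding gene was 131 kb, against 106 kb over all FL peaks. Promoters, taken as 1000 bp upstream to 100 bp downstream of a start, held 5 sites or 0.532% (0.173 to 1.24), against 0.552%.

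Beside the chromosome Y site, the promoter sites belonged to 4 genes. The site 84 bp from a start of RAD51AP1, a homologous recombination factor, had a fold enrichment of 7.60 and was in the ICRF-193 list with 9.68 but not in the camptothecin list. The site at DDX60, an interferon-induced helicase gene, had 5.41, with 9.71 after camptothecin and 12.4 after ICRF-193. The site at GOLGA8M had 5.38, and 42.3% of its 75-base stretches were unique. Golgin genes of this family are near copies of each other, but where the other copies of these stretches lie was not examined. The site at SPTAN1, which encodes a spectrin, had 4.88, with 5.23 and 8.22 after the inhibitors. None of these 4 overlapped an ATAC-seq peak in either list. Another 4 sites had their summit in an annotated exon outside promoters, of CTBS and SPATA1, OR2L13, TMEM236 and MIPOL1, with fold enrichments of 6.64, 5.30, 6.23 and 8.28, and all 4 were in both treated lists; these were named after their values were seen.

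Within genes, 341 sites, or 36.3%, fell in the bodies of 327 protein-coding genes, against 40.1% of all FL peaks. Of these genes, 2 held 3 or more sites. CADM2, a synaptic adhesion gene on chromosome 3, held 3 of its 28 FL peaks in this class, with fold enrichments of 12.4, 5.27 and 8.01 and 81.0, 77.0 and 84% A/T. All 3 were in both treated lists. CNTN5, a contactin gene expressed in neurons, on chromosome 11, held 3 of its 23 FL peaks, with 4.86, 5.68 and 5.0. These were in the ICRF-193 list, and 1 was in the camptothecin list. PJA2, which encodes a ubiquitin ligase, was chosen after its values were seen: both of its FL peaks were absent from the construct lists, with 21.3 and 18.6, and both reached 34.1 after ICRF-193. Host genes were long in both groups, with a median of 249 kb for the absent sites and 258 kb for the other FL peaks, against 27.2 kb over all protein-coding genes.

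In 4 gene lists relevant to the cell type and to Satb1, the interval of the absent share held 4.10% each time. Within 50 kb of 16 epithelial and mesenchymal transition genes lay 69 FL peaks, and 3 of them, or 4.35% (0.906 to 12.2), were absent from the construct lists. In introns of EGFR, a growth factor receptor gene with 3 FL peaks in reach, lay 2 of them, with fold enrichments of 5.76 and 5.63 and with 70.5 and 84% A/T. The first of these was in neither treated list. The third was in NRG1, a ligand of ERBB receptors, with 10.5. Near 21 long synaptic and neuronal genes, 17 of 438 FL peaks were absent, or 3.88% (2.28 to 6.14), spread over 12 of the genes. CSMD3 had 3 of 51 and ROBO2 1 of 34. Near 15 T cell genes 0 of 16 FL peaks were absent, which allows up to 20.6%, and near 8 genes of topoisomerases, SATB proteins and chromatin factors 0 of 8, which allows up to 36.9%.

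The sites were spread over all chromosomes. Chromosome 4 held 87 of them, the most of any chromosome. As a share of FL peaks, the autosomes and chromosome X ranged from 2.75% (2.12 to 3.49) of 2330 on chromosome 1 to 6.97% (4.31 to 10.6) of 287 on chromosome 20. Chromosomes 1 and 20 had intervals that did not hold 4.10%, and the other chromosomes did not differ from it beyond their intervals. Absent sites were mostly solitary. The median distance to the next one was 761 kb, 22 lay within 10 kb of another and 215 lay within 10 kb of an FL peak found in a construct list. A run of 4 sites spanned 56.6 kb on chromosome 3 (163292283 to 163348936) in a gene desert, with fold enrichments from 5.27 to 11.4. Another 4 spanned 141 kb on chromosome 5 (104085795 to 104226347), with 6.09 to 16.2.

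Repetitive sequence moved slightly with the class. All 75-base stretches of the 400 bp window were unique in the genome for 89.3% (87.1 to 91.2) of the absent sites and 92.7% (92.3 to 93) of the other FL peaks. Fewer than 50% were unique for 43 absent sites, or 4.60%, against 2.78% of the other FL peaks. Without those 43 sites and without chromosome Y, 892 sites remained with 81.0% A/T. Read alignment, base composition of the libraries and depth differ between cell lines in ways the lists do not show, and their part in the absence from the construct lists was not tested.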

How the data were processed

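Peak lists of Satb1 ChIP-seq from MCF10A cells (5 lists) and of ATAC-seq (2 lists) were used, 1 per condition. Per the submitters' processing notes, reads were trimmed with cutadapt, aligned to hg19 with Bowtie2, and peaks were called with MACS2 against input DNA. DESeq2 is also named there and was not used here. The study states a version for the trimming step only and 1 range of depth for all ChIP-seq libraries together. The depth behind each list and the pooling of duplicate experiments are not given in the sources used here, so no precision from depth could be attached to a fold. The deposited values are the fold enrichment of each peak (a ratio), its −log10 p and −log10 q, and a score, all as the authors' peak caller wrote them. ATAC-seq peaks were called by the authors as broad peaks.

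The members and gene lists were chosen with earlier results of these data known. Lists were intersected by position, with 1 bp as overlap. A/T content was read in 200 bp and motifs in 400 bp at the peak midpoint from the GRCh37 primary assembly. GENCODE v44 lifted to GRCh37 gave protein-coding genes, applied to the summit. Shares carry Clopper-Pearson intervals, their differences Newcombe intervals, and means normal intervals across peaks. The 4 classes of strength have edges at the quartiles of FL fold enrichment. No test was run, since conditions have 1 list each. Sites named were the 8 strongest (1 of them is not reported here), the 3 with most matches, the 3 strongest without a match, the 3 strongest in neither treated list, the 5 strongest in both ATAC-seq lists, those at promoters, the 3 of smallest −log10 q, and genes with 3 or more sites. Alternatives changed the overlap, thresholds, windows, motif, annotation and members. Within-A/T classes and the removal of repetitive sites were chosen after seeing the data. Scripts were tested on simulated data. Tools were bedtools 2.31.1, samtools 1.23.1 and, under Python 3.11.15, numba 0.67.0, pysam 0.24.0, scipy 1.17.1, matplotlib 3.10.9, pandas 2.3.3 and numpy 2.4.6. The 3 lists from VL3 cells (mouse) and the other samples were not analysed here.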

Additional observations from a re-analysis of the deposited data

How the results depend on the processing

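No paired analysis was possible because each condition had 1 peak list and no test was made. Of the alternatives, 68 left their value close to the reported one, 38 moved it and 15 reversed it. The cause of the changes below was not tested. A reciprocal overlap of 50% gave 1746 absent sites, and dropping construct peaks with a fold enrichment under 5 gave 1447, against 939. A/T content was 83.9% in 100 bp and 75.9% in 400 bp, with differences from other FL peaks of 9.97 and 6.42 points. By strength class that difference was 8.07 (weakest), 10.8 (the third) and 12.3 points (strongest). CTAATAR gave a share of 44.4% and a difference of -23.7 points, and YTAWTAR in 150 bp gave 86.0% and -4.03 points. The YTAWTAR difference was 0.33 points in the weakest class, -9.51 in the strongest and -7.51 at 85% A/T and above. With transcripts of every type 42.2% of sites were intergenic, and the intergenic difference was 0.50 points in the strongest class, -5.84 at 80 to 85% A/T and -6.61 above. With promoters of 2000 bp on either side the share was 2.56%, and the promoter difference was -0.54 points in the second strength class and -1.22 at 85% A/T and above. With 50% of the peak covered, the native ATAC-seq share was 0.85%. The native difference was 0.56 points in the strongest class, 0.35 below 75% A/T and -0.41 at 85% and above. With Satb1 it was 0.18 points in the third strength class and, by A/T class, 0.86, 0.14, -3.48 and -4.81. The camptothecin share was 81.0% by reciprocal overlap and 77.7% with a treated fold of at least 5. Its difference was 14.1, 11.2 and 0.0178 points in the first, second and strongest class, and -28.3, -15.1, -6.46 and -1.90 by A/T class. The ICRF-193 share was 85.1% by reciprocal overlap, with a difference of -3.75 points, and 94.6% with a treated fold of at least 5, with 6.66 points. Its difference was 12.4, 7.90, 1.03 and 0 points by strength class, and -8.03, -2.03, 0 and 0 by A/T class. Direction against other FL peaks thus held for A/T content under every alternative run. It did not for the shares in the drug lists, the ATAC-seq lists, intergenic DNA and consensus matches. The promoter difference, reported as -0.0191 points, also changed sign, for instance to 0.313 points with 2000 bp on either side of a start.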
